A study of Mus musculus with 12 samples.

Results

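The arms of the miR-129 hairpins, mmu-miR-129-5p and mmu-miR-129-3p, were followed in miRNA-Seq libraries from mouse frontal cortex (FCx) and hippocampus (HP). Both members were found by name, and they are 2 of the 469 miRNAs listed in the count files and 2 of the 431 that had at least 2 counts in FCx or in HP. Their reads in the genome were taken from the 2 hairpins that carry them, Mir129-2 on chromosome 2 and Mir129-1 on chromosome 6. The tissue came from untreated male C57BL/6J mice of 8 weeks. Tissue of 3 mice was pooled per region before the RNA was extracted, and 3 libraries were made from each RNA, so the libraries of a region share their animals. Libraries of a region were marked by their index, which is 6 nt long and forms the end of the 5′ adaptor, so its last base is ligated to base 1 of the miRNA. The index sequences were UUAGGC (index 3), CAGAUC (index 7) and GGCUAC (index 11). Every library was sequenced alone (individual lane) and again together with the other libraries of its region (pooled lane), and both runs were summed. The libraries of indexes 3, 7 and 11 held 391410, 1461732 and 652449 miRNA counts in FCx, and 3206221, 4956117 and 4053518 in HP, so values of FCx rest on fewer reads. The spread within a region therefore contains the index but not the animals.

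A miRNA hairpin is cut by Drosha and then Dicer into a duplex of a 5p and a 3p arm, and the arm that is loaded into an Argonaute protein guides silencing of mRNAs that match its seed, the bases 2 to 8. Arms of one hairpin are made in equal numbers, but they differ in loading and stability, so one arm usually accumulates. The miR-129 family is enriched in brain, and in hippocampal neurons miR-129-5p is known to repress Kcna1, which encodes a voltage-gated potassium channel.

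All indexes end in C, so base 1 of an arm was ligated to the same base in every library. The mature sequences are shown because the arms differ in seed and in the base that meets the index. They were taken from RefSeq (GRCm38.p6), with the seed in capitals:
mmu-miR-129-5p: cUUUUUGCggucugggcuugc
mmu-miR-129-2-3p: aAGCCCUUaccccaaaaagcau
The 5p arm starts with C and its seed holds a run of U, whereas the 3p arm starts with A. Of the 1679 mature names in the RefSeq table, none beside these shared the seed UUUUUGC or AGCCCUU, so no other miRNA of the count files was grouped with either arm by its seed. The 5p arm has a GC content of 54.5% over 22 nt, and the 3p arm 45.5% in Mir129-2 and 40.9% in Mir129-1.

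The hairpins are shown because reads of one arm can come from either of them. Both were read from the build of the alignments, NCBIM37, and are identical to the RefSeq hairpins, with 22 nt of each arm in capitals:
Mir129-2: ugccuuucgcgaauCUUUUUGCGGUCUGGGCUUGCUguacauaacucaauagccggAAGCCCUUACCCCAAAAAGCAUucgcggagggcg
Mir129-1: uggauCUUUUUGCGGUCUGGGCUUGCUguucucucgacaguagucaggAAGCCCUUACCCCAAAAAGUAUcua
Mir129-2 lies at chr2:94081521-94081610 on the minus strand and is 90 nt long. It is intergenic in GENCODE vM1, with the processed transcript E530001K10Rik 10425 bases away as the nearest gene at higher coordinates and Mir670 19846 bases away on the same strand. Mir129-1 lies at chr6:28972619-28972691 on the plus strand and is 73 nt long. The processed transcript Gm3294 ends 453 bases before it on the same strand, and Lep, the gene of the hormone leptin, starts 37528 bases after it. From the start of the 5p arm the hairpins share 24 bases, and no alignment in the files was longer than 23 nt, so a 5p read cannot be assigned to its hairpin. The 22 nt of the 3p arms differ by 1 substitution, C20U from Mir129-2 to Mir129-1, counted from the 5′ end of the arm.

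Both arms were present in all 6 libraries, and the 5p arm had more counts in each. MiR-129-5p had 438, 3055 and 349 counts in FCx with indexes 3, 7 and 11, or 1119, 2090 and 535 counts per 1000000 miRNA counts (CPM). In HP it had 2581, 9813 and 1466 counts, or 805, 1980 and 362 CPM. In both regions the index 7 library was highest and the index 11 library lowest, and the regions overlapped. MiR-129-3p had 185, 241 and 153 counts in FCx, or 473, 165 and 234.5 CPM, and 790, 1715 and 980 counts in HP, or 246, 346 and 242 CPM. In FCx the index 3 library was highest and the index 7 library lowest, also with TMM factors and DESeq2 size factors. In HP index 7 was highest by these library totals, and index 11 by TMM (356 CPM against 341 CPM for index 7) and by DESeq2 size factors. The regions overlapped under each scaling, but 2 of the 3 HP libraries, those of indexes 7 and 11, lay above all FCx libraries (at most 299 CPM) with TMM.

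**Figure D1:**
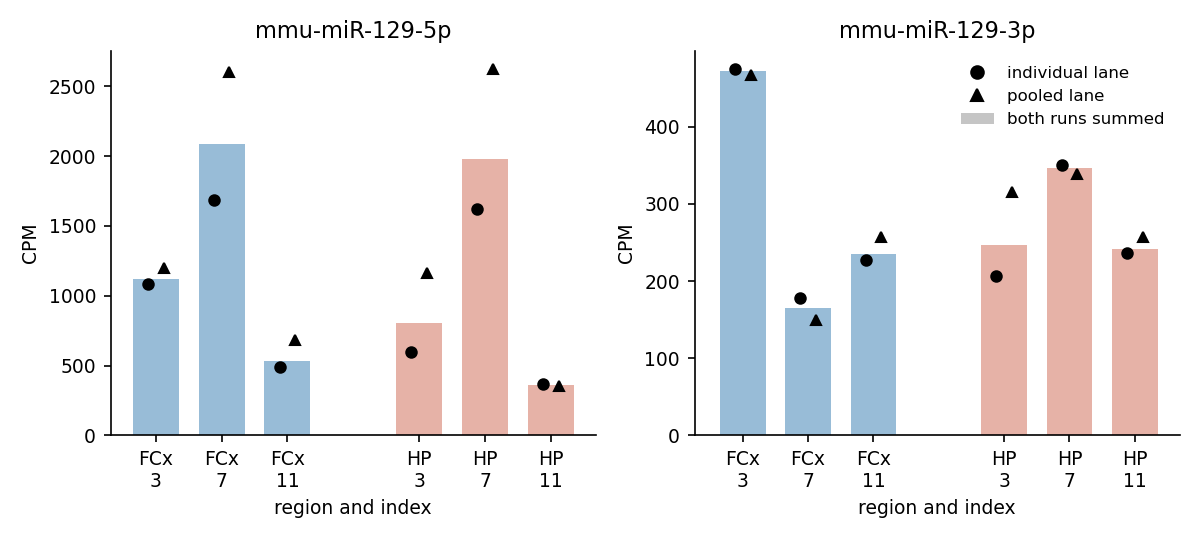
CPM (vertical axes, counts per 1000000 miRNA counts, scaled by library totals) of mmu-miR-129-5p (left) and mmu-miR-129-3p (right) in the 6 libraries, given by region and index. Bars are both runs summed, circles individual lanes and triangles pooled lanes. With index 7 the 5p arm reached 2090 CPM (FCx) and 1980 CPM (HP), while the 3p arm was lowest in FCx (165 CPM) and highest in HP (346 CPM) with that index.

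The mean level of miR-129-5p in FCx was 1248 ± 786 CPM (SD, n = 3 libraries), 48th of the 420 miRNAs listed there, and in HP 1049 ± 836 CPM, 49th of 452. For miR-129-3p the mean was 291 ± 161 CPM in FCx, 97th, and 278 ± 58.9 CPM in HP, 92nd. Thus the difference between the arms was larger than the difference between the regions, and the SD of miR-129-5p was of the size of the gap between the arms.

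Whether the arms are expressed on different levels in FCx and HP was asked first. The paper counts miR-129-5p among the miRNAs higher in FCx, at p under 0.05 without correction for multiple testing. Its list joins miRNA-Seq and microarrays with biological replicates, and the platform behind this entry was not checked here. Neither arm was called between the regions. By the quasi-likelihood test of edgeR after TMM scaling, the difference FCx minus HP on the log2 scale was 0.07 for miR-129-5p (SE 0.84, adjusted p = 0.994) and -0.46 for miR-129-3p (SE 0.70, adjusted p = 0.992). The test called 2 of 431 miRNAs (0.464%) at an adjusted p under 0.05. Libraries with the same index resembled each other in the 2 regions, and with the index as a block the test called 77 miRNAs (17.9%). In the blocked edgeR test the SE fell to 0.29 for miR-129-5p and 0.28 for miR-129-3p, with log2 differences of -0.05 (adjusted p = 0.939) and -0.48 (adjusted p = 0.256). Without the block the median of all 431 log2 differences was -0.37 with TMM and 0.03 with library totals, so the zero of the scale itself moved with the normalization. Relative to that median, miR-129-5p lay 0.45 higher and miR-129-3p 0.09 lower with TMM.

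Within an index, library totals gave 1.39, 1.06 and 1.48 times as much miR-129-5p in FCx as in HP with indexes 3, 7 and 11. With TMM factors the log2 differences were -0.28, 0.25 and -0.11, and with DESeq2 size factors 0.05, 0.39 and 0.24. The direction with indexes 3 and 11 thus depended on the scaling, and only TMM gave lower values in FCx. Among 139 miRNAs that averaged 100 CPM or more, 39 (28.1%) were higher in FCx with every index by library totals and 29 in HP, and with TMM 20 (14.4%) in FCx and 66 in HP. By library totals the within-index ratios of miR-129-3p were 1.92 with index 3, 0.477 with index 7 and 0.97 with index 11, or 0.94, -1.07 and -0.04 on the log2 scale, and with TMM factors 0.18, -0.90 and -0.72. The arm was higher in FCx with index 3 and lower with index 7 under library totals, TMM and DESeq2 size factors alike. In pools of tissue, fewer cells of a type and less miRNA per cell cannot be told apart.

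The 5 neuronal and brain markers (miR-124, miR-9, miR-9*, miR-128 and miR-138) were counted in every library and together held 244128, 272848 and 243547 CPM in FCx and 105758, 170053 and 149565 CPM in HP. The difference of this sum was mainly that of miR-128, the most abundant on average. It held 196009, 177013 and 208464 CPM in FCx against 63974, 70734 and 110495 CPM in HP. MiR-124 was also higher in FCx with every index (27912, 57775 and 4091 CPM against 15170, 39174 and 2504 CPM). MiR-9 was lower in FCx with every index (17202, 36936 and 28695 CPM against 23927, 57807 and 35218 CPM). The direction of miR-9* and miR-138 changed with the index. Markers of other tissue also moved with the region. All 8 olfactory bulb and epithelium markers (miR-200a, miR-200b, miR-200c, miR-141, miR-429, miR-182, miR-183 and miR-96) were listed, and together they held 2540, 5702 and 1478 CPM in FCx against 66.1, 134 and 24.7 CPM in HP. On average miR-200a was the most abundant. MiR-200b was above it in both index 3 libraries, and in HP with index 11 by 39 counts against 38. MiR-96 was at 0 in every HP library. The 5 choroid plexus markers (miR-204, miR-211, miR-34b-5p, miR-34c and miR-449a) held 94.5, 65.7 and 50.6 CPM in FCx and 247, 273 and 92.5 CPM in HP, with miR-34c the most abundant on average, miR-204 above it with index 11 in both regions, and miR-449a at 0 in 3 of the 6 libraries. By CPM, miR-211 was higher in FCx with indexes 3 and 11 and miR-449a with index 7, each on at most 2 counts in FCx. The part of such tissue in the values of miR-129 was not tested.

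The libraries of a region were made from one RNA, so the second question was how far each arm depended on the index. MiR-129-5p changed with the index. In edgeR's quasi-likelihood test with the region in the model, the 3 indexes differed (adjusted p = 3.47e-08). It was 4.16-fold higher with index 7 than with index 11, the widest pair, a log2 difference of 2.06 (SE 0.36, adjusted p = 1.10e-07). Index 7 also gave 2.73-fold more than index 3 (log2 difference 1.45, SE 0.36, adjusted p = 0.000264), while indexes 3 and 11 differed by 0.61 (SE 0.35, adjusted p = 0.177). The index test called 264 of 431 miRNAs (61.3%), the median range over the indexes was 2.21, and miR-129-5p was 241st by its range. Its dependence on the index was thus close to that of a typical miRNA in these libraries.

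MiR-129-3p was not called between the indexes. Its fitted range was 0.17 on the log2 scale (edgeR, adjusted p = 0.889), the 427th of 431. It moved with the scaling and with single libraries, to 0.59 with library totals, 0.67 without the FCx index 3 library, 0.66 without the FCx index 11 library, and 0.51, 0.93 and 0.30 without the HP libraries of indexes 3, 7 and 11. With DESeq2 size factors, and without the FCx index 7 library, the range was 0.20. This fit averages the regions, and the libraries themselves were further apart. With TMM the log2 range within a region was 0.71 in FCx and 0.44 in HP. Both were narrow among the 139 miRNAs of at least 100 CPM, 120th and 134th from the widest, with a median of 1.94 in each region. By library totals, the FCx index 3 library had 2.87-fold more miR-129-3p than the FCx index 7 library. Index 7 in HP had 1.40-fold more than index 3 (95% interval of the ratio from counting error 1.29 to 1.53). Both runs gave these directions, with 2.68-fold and 3.14-fold more for index 3 in the individual and the pooled lanes of FCx, and 1.69-fold and 1.07-fold more for index 7 in those of HP. The interval of the last ratio, 0.942 to 1.22, included equal levels. The directions were opposite under library totals, TMM and DESeq2 size factors, and with TMM the log2 differences were -0.71 in FCx and 0.37 in HP. Of the 139 miRNAs of at least 100 CPM, 26 (18.7%) had opposite signs for this pair of indexes with TMM and 30 (21.6%) with library totals. The model of region, index and their combination leaves no residual degrees of freedom, so the difference between the regions in this ratio was not tested.

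Over the 6 libraries the arms did not run in parallel. The log2 CPM (TMM, prior count of 2) of miR-129-5p and miR-129-3p had a Pearson correlation of -0.259. MiR-129-5p was most like miR-378 (r = 0.993), miR-222 (0.989) and miR-338-3p (0.989) among the 137 other miRNAs of at least 100 CPM. MiR-378, with 588, 1890 and 187 CPM in FCx and 356.5, 1951 and 154 CPM in HP, showed the same high level with index 7 and low level with index 11. MiR-338-3p, an oligodendrocyte marker, reached 677 CPM (FCx) and 768.5 CPM (HP) with index 7 and at most 121 CPM in the other libraries. The other oligodendrocyte marker, miR-219, did not follow it. With indexes 3, 7 and 11 it held 1484, 340 and 507 CPM in FCx and 1754, 1539 and 383 CPM in HP. The miRNAs most like miR-129-3p were miR-341 (r = 0.860), miR-146b (0.850) and miR-191 (0.807). With index 3, miR-341 was at 345 CPM (FCx) and 183 CPM (HP), and with index 7 at 174 and 272 CPM. The points of these correlations share their libraries, RNA and indexes, and the values describe likeness over 6 libraries.

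The ratio of the arms within a library needs no scaling, since both arms share its total. In FCx the counts of the 5p arm were 2.37, 12.7 and 2.28 times those of the 3p arm with indexes 3, 7 and 11. In HP they were 3.27, 5.72 and 1.496 times those of the 3p arm. The libraries of a region share their RNA, so these ratios describe reads and not molecules in the tissue. As a share of the counts of both arms, miR-129-5p made up 70.3% (95% Wilson interval 66.6 to 73.8), 92.7% (91.8 to 93.5) and 69.5% (65.4 to 73.4) in FCx. The shares in HP were 76.6% (75.1 to 78.0), 85.1% (84.5 to 85.8) and 59.9% (58.0 to 61.9). In both regions index 7 gave the highest share, and its interval did not touch that of another index of the region. Reads carried no molecular identifiers, so these intervals cover counting error only.

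The 2 runs of the index 7 libraries differed beyond counting error in the share. The individual lanes held 90.5% (88.9 to 91.8) in FCx and 82.2% (81.2 to 83.2) in HP, and the pooled lanes 94.6% (93.4 to 95.6) and 88.6% (87.7 to 89.4). With index 3 the HP runs also lay apart, at 74.3% (72.2 to 76.4) and 78.7% (76.7 to 80.6). The intervals of the runs overlapped in the other 3 libraries. The order of the indexes in HP was the same in each run, 7 before 3 before 11, while in FCx index 7 was highest in each run and indexes 3 and 11 changed places within overlapping intervals.

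**Figure D2:**
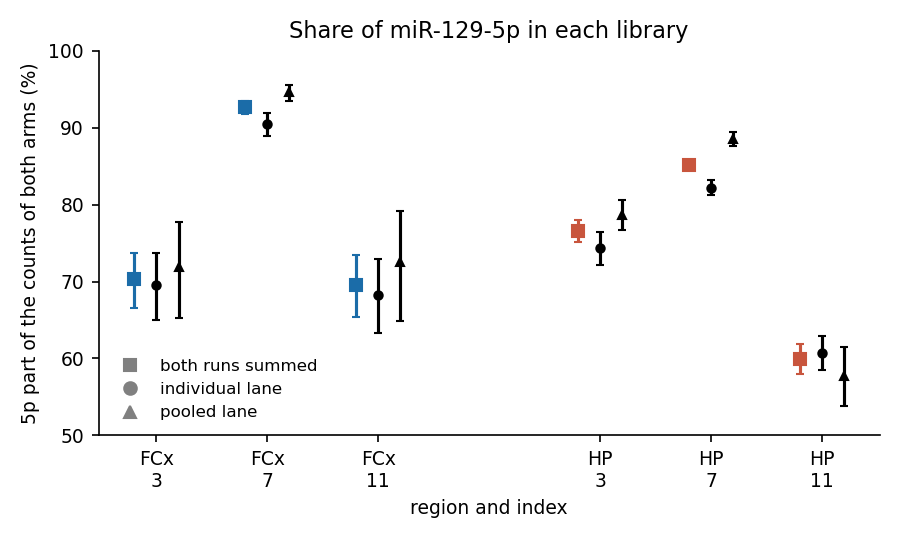
Share of miR-129-5p in the counts of both arms (vertical axis, percent, from 50 to 100) by region and index, with 95% Wilson intervals as bars. Coloured squares are both runs summed, black circles individual lanes and black triangles pooled lanes. Index 7 reached 92.7% in FCx and 85.1% in HP, and index 11 in HP was lowest at 59.9%.

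Between the regions the ratio of the arms did not differ beyond the spread of the libraries. The mean log2 ratio was 2.03 ± 1.41 in FCx and 1.60 ± 0.97 in HP (SD, n = 3 libraries), a difference of 0.43 (exact two-sided permutation test, p = 0.7, smallest possible p 0.1). The direction rested on single libraries, since without the FCx index 7 library the difference was -0.39. Over the indexes the mean log2 ratio of the regions was 1.48, 3.09 and 0.88 for indexes 3, 7 and 11, a range of 2.21 or 4.61-fold. When the indexes were exchanged within each region, 36 arrangements gave an exact permutation p = 0.167, which is the smallest this design allows. Exchanging them over all 6 libraries gave an exact permutation p = 0.0667, again the smallest possible with 15 distinct pairings, so neither test could pass 0.05.

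Other hairpins showed how common such a range was. Both arms had at least 10 counts in every library for 22 hairpins of 122 named pairs. The log2 arm ratio of miR-129 ranged over 2.47 in FCx and 1.94 in HP, and the medians of the other 21 were 2.72 and 1.93. MiR-129 was 14th by the mean of both regions. By that mean the widest ranges were those of miR-369 (7.16 in FCx and 6.86 in HP) and let-7b with let-7b* (5.60 and 4.49), and the narrowest those of miR-330 with miR-330* (0.22 and 0.45) and let-7d with let-7d* (1.24 and 0.70). In 17 of the 22 hairpins one index gave the highest ratio in both regions, and miR-129 with index 7 was among them.

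**Figure D3:**
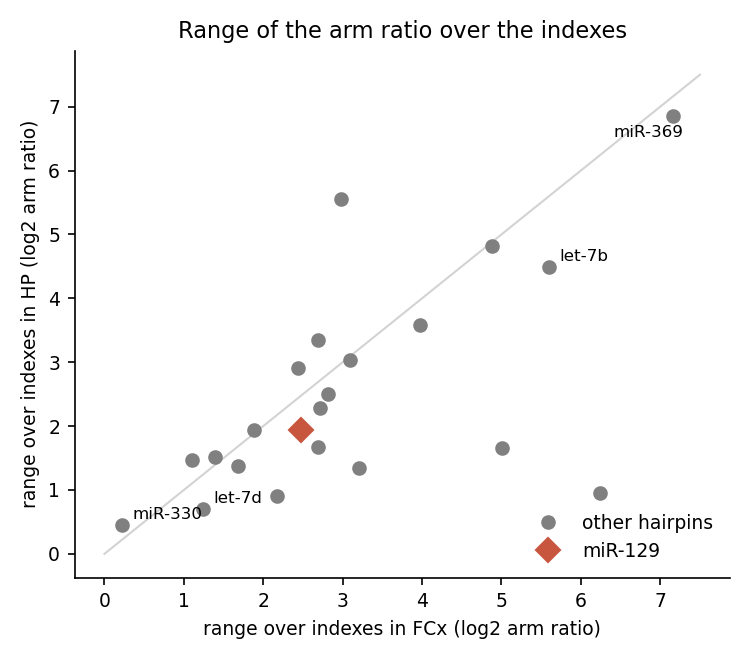
Range over the 3 indexes of the log2 arm ratio in FCx (horizontal axis) and in HP (vertical axis) for 22 hairpins, with the line of equal ranges in grey. MiR-129 (diamond, 2.47 and 1.94) lies among the other hairpins (circles), between miR-330 at the low end and miR-369 at the high end.

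Alignments to the genome gave the loci and ends of the reads. A total of 21253 alignments lay on the arms of the hairpins, 17231 at 5p arms and 4022 at 3p arms, beside 17702 and 4064 counts in the count files, which come from a separate mapping to mature miRNAs. None lay wholly between the arms or on the opposite strand. At the 5p arm the main 5′ end was the annotated one, base 15 of Mir129-2 and base 6 of Mir129-1, and 98.7% of all 5p alignments (17014 of 17231) started there. At the 3p arm 97.1% (3907 of 4022) started at base 57 of Mir129-2 or base 49 of Mir129-1, the latter placed by the 19 leading bases that the 3p arms share. Alignments that started 1 base later, which moves the seed by that base, numbered 186 at the 5p arm and 72 at the 3p arm.

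**Figure D4:**
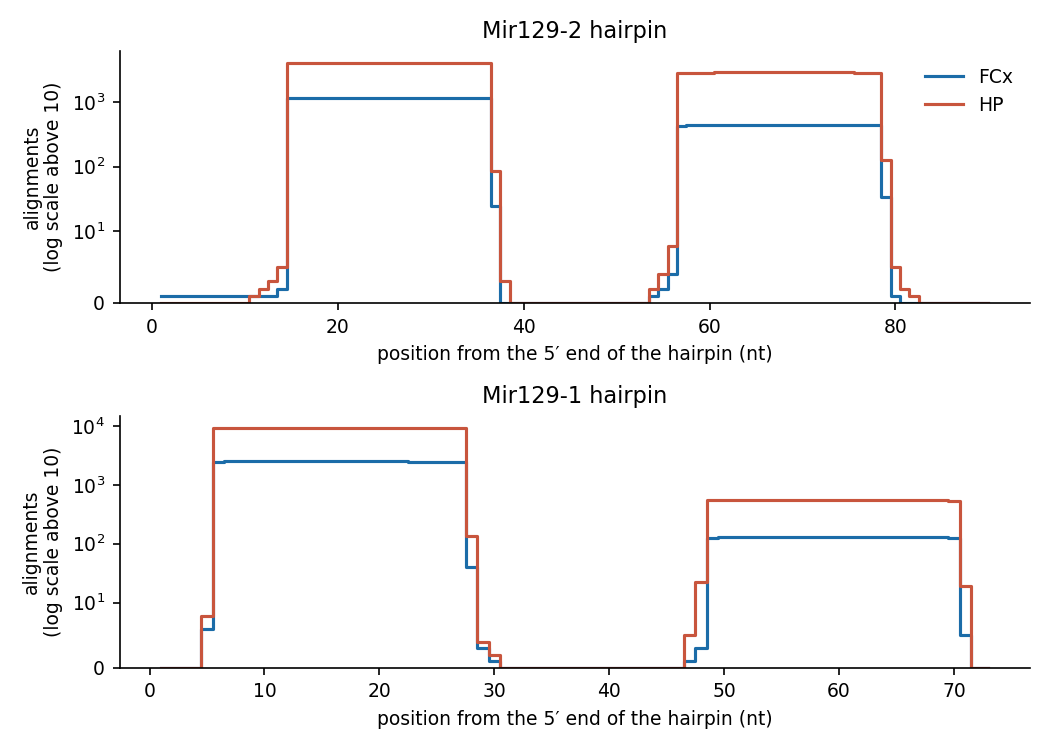
Number of alignments that cover each position (horizontal axis, nt from the 5′ end) of the Mir129-2 hairpin (top) and the Mir129-1 hairpin (bottom), summed over the 3 libraries of FCx (blue) and of HP (red). The vertical axis is linear to 10 and logarithmic above, and FCx rests on fewer reads. A pair of blocks, the 5p arm and the 3p arm, start sharply at the 5′ ends of the arms (15 and 57, 6 and 49), and the middle of the loop is not covered.

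The share of 5p alignments at the main 5′ end was 98.6%, 98.5% and 98.4% in FCx with indexes 3, 7 and 11, and 98.9%, 98.8% and 98.9% in HP. All HP libraries were above all FCx libraries, by 0.343 percentage points on average (98.5 ± 0.107% against 98.9 ± 0.0805%, SD, n = 3 libraries, exact two-sided permutation p = 0.1, the smallest possible). Each library's share had a wider Wilson interval than that difference, from 97.0 to 99.4% in the FCx index 3 library and from 98.5 to 99.0% in the HP index 7 library. The individual lanes alone gave a difference FCx minus HP of -0.15 points (exact permutation p = 0.9) and the pooled lanes alone -0.83 points (exact permutation p = 0.5). At the 3p arm the shares were 94.6%, 95.4% and 98.7% in FCx and 95.0%, 97.6% and 98.8% in HP (exact permutation p = 0.7), and index 11 was highest in both regions. The 5′ ends of both arms were thus nearly uniform in the 2 regions.

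The 3p reads were placed mainly at Mir129-2. Of all 3p alignments 3334 lay there and 688 (17.1%) at Mir129-1, whose 3p arm differs by C20U. Alignments at Mir129-1 made up 17.2% (12.5 to 23.3), 27.7% (22.4 to 33.7) and 20.1% (14.6 to 27.1) of the 3p alignments in FCx with indexes 3, 7 and 11. In HP they made up 18.1% (15.5 to 20.9), 15.0% (13.4 to 16.8) and 16.9% (14.7 to 19.4). The means were 21.7 ± 5.43% and 16.7 ± 1.54% (SD, n = 3 libraries), a difference of 5.04 points that did not exceed the spread (exact two-sided permutation p = 0.2). Without the FCx index 7 library it was 2.02 points. Leaving out the FCx index 3 library gave 7.28 points and the pooled lanes alone 9.01 points (exact permutation p = 0.1 for each, the smallest possible). Up to 2 mismatches were allowed, so a read of either arm could be placed at the other hairpin, and the rule for such reads was not given in the sources used here.

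In the FCx index 7 library, miR-129-3p was below the FCx index 3 library at both hairpins, but at Mir129-1 it was close to the other libraries. Per 1000000 miRNA counts, alignments of the 3p arm at Mir129-2 numbered 393, 118 and 189 in FCx and 199.6, 289 and 200.1 in HP. At Mir129-1 they numbered 81.8, 45.2 and 47.5 in FCx and 44.0, 51.1 and 40.7 in HP. Mir670, the nearest annotated miRNA gene to Mir129-2, had 7 and 2 counts with indexes 3 and 7 in HP and 0 in the other 4 libraries.

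The 5p reads, which cannot be told apart, were placed at Mir129-1 in 68.5%, 69.4% and 56.5% of cases in FCx and in 68.5%, 71.4% and 60.8% in HP. Index 11 was lowest in both regions, with intervals of 50.9 to 61.9% and 58.2 to 63.3% that lay below those of the other indexes of the region. Among 5p alignments of 22 nt, whose sequence is the same at both loci, index 11 gave 54.5% and 58.2% and the other libraries 68.4 to 71.55%. These shares describe the placement of reads by the aligner and not the output of the hairpins.

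The lengths of the alignments separated index 11 from the other indexes at the 5p arm. Alignments of 22 nt made up 83.3 to 99.1% of the 5p arm and 87.7 to 98.4% of the 3p arm in the 6 libraries, no alignment was longer than 23 nt, and few were of 18 to 21 nt, so the lengths do not show the 3′ ends of the molecules. At the 5p arm, alignments under 18 nt made up 1.87% (0.9501 to 3.65), 0.370% (0.207 to 0.661) and 13.5% (10.2 to 17.8) in FCx with indexes 3, 7 and 11. In HP they made up 1.04% (0.708 to 1.51), 0.374% (0.271 to 0.518) and 16.0% (14.2 to 18.04). They numbered 42 and 223 in the index 11 libraries of FCx and HP. At the 3p arm 2 of 4022 alignments were under 18 nt.

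In whole libraries index 11 had the lowest share instead. Of all genome alignments, 30.6%, 24.9% and 8.50% were under 18 nt in FCx and 13.2%, 14.6% and 5.17% in HP. Among 87 annotated hairpins with at least 100 alignments in each library, the median share under 18 nt was 1.83% in FCx and 2.10% in HP with index 11. Mir129-1, both arms together, had 14.1% and 16.5% there and was 10th and 11th from the highest, and Mir129-2 had 5.04% and 4.20% and was 26th and 33rd. These shares count both arms, and a short 5p read could have been placed at either hairpin. With index 7, Mir129-1 had 0.516% and 0.337% and was 69th and 70th.

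**Figure D5:**
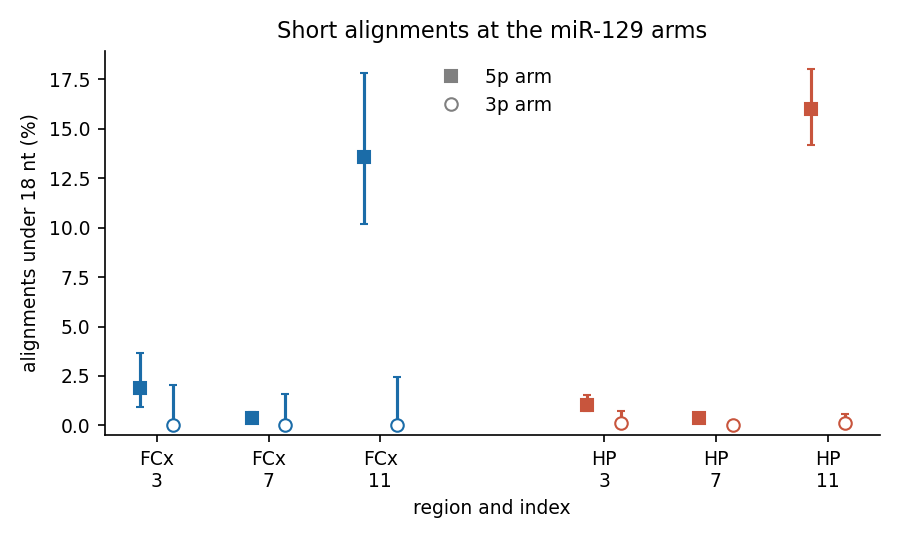
Share of alignments under 18 nt (vertical axis, percent) at the 5p arm (filled squares) and the 3p arm (open circles) of both hairpins, by region and index, with 95% Wilson intervals as bars. The 5p arm with index 11 stands at 13.5% in FCx and 16.0% in HP, and the other values are at most 1.87%.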

How the data were processed

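Small RNA libraries of FCx and HP were sequenced on the Illumina Genome Analyzer II. The count values are unnormalized read numbers for the mature miRNAs of miRBase version 11, in 12 lane files, as deposited by the authors. The positions of the alignments to NCBIM37 are other values as deposited by the authors. According to the methods, reads were sorted and trimmed by index, reads under 14 nt removed and Bowtie used with 2 mismatches allowed, but alignments from 4 nt were present. Names of 2 HP alignment files contradict their labels, and the labels were followed.

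The runs of a library were summed. Levels were compared with edgeR 4.0.16 in R 4.3.3 (quasi-likelihood test, TMM, Benjamini-Hochberg over 431 miRNAs), and DESeq2 1.42.0 was an alternative. P-values measure spread between libraries of 1 RNA per region, which is technical. The index pairs the libraries: deviations from the region means correlated with r of 0.772, 0.854 and 0.836 for libraries of one index and -0.597 to -0.245 for others. Single values were compared with exact permutation tests in Python 3.11.15 with scipy 1.17.1, and shares have 95% Wilson intervals.

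The members, lists and tests were chosen with earlier results of these data known. Named are, for each arm, the 3 miRNAs with the highest correlation among those of at least 100 CPM, and the 2 hairpins with the widest and the 2 with the narrowest arm ratio range. The measure of short alignments and the comparison of scalings within libraries were added after the data were seen.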

Additional observations from a re-analysis of the deposited data

Results flagged for a closer look

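The ratio of index 7 over index 3 for miR-129-3p moved in opposite directions in the regions, with a log2 ratio of -1.52 in FCx and 0.49 in HP by library totals, and both runs of each region had the sign of their sum. The ratio of index 7 over index 11 did so too, with -0.51 in FCx and 0.52 in HP. The third pair, index 3 over index 11, had the same sign in the regions by library totals, with 1.01 in FCx and 0.03 in HP. Its HP runs went opposite ways, with -0.195 in the individual and 0.296 in the pooled lanes. The signs in the regions were opposite with TMM (0.46 in FCx and -0.44 in HP) and DESeq2 size factors (0.28 and -0.59). With TMM, 15 of the 139 miRNAs of at least 100 CPM (10.8%) had opposite signs for this pair, and miR-129-3p was 10th of the 139 by the size of the difference between the regions (0.90, against a median size of 0.32). For index 7 over index 3 miR-129-3p was 29th (-1.08, against a median size of 0.59). For index 7 over index 11 it was 116th (-0.18, against 0.57). The difference between the regions was not tested for any pair. The first pair kept opposite signs with TMM factors and DESeq2 size factors. For the second pair, HP gave -0.06 with TMM and -0.04 with DESeq2 size factors, so both regions then had the same sign. Of the 139 miRNAs of at least 100 CPM, 24 (17.3%) had opposite signs for the second pair by library totals and 17 (12.2%) with TMM. Groups of 3 libraries are too small for the test of single outlying libraries.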

How the results depend on the processing

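Neither arm was called between the regions under any of the 16 alternatives, with adjusted p from 0.256 (miR-129-3p, replicate block) to 1. The sign of the log2 difference FCx minus HP was not stable. MiR-129-5p was -0.0457 with the replicate block and -0.48 to 0.89 without one library. MiR-129-3p was 0.0617 with library totals, 0.0344 by the exact test of edgeR over 12 lane files and -0.62 to 0.0296 without one library. The number of miRNAs called between the regions was 2, and it was 77 with the replicate block, 56 with the block and library totals, 8 with no filter, 12 with DESeq2's Wald test, 14 with the exact test on lane files, 0 with edgeR on the pooled lanes (18 at an unadjusted p under 0.05) and 0 to 7 without one library. The 2 counts of 0 came with edgeR without the HP index 3 library (14 unadjusted) and the HP index 11 library (17 unadjusted). With the index as a pairing in the permutation tests, the exact p was 0.5 for the arm ratio and for the 3p locus share. With 3 pairs such a test cannot pass 0.05. The replicate block changed no call of either arm. The index range of miR-129-5p stayed called in all 13 alternatives (adjusted p at most 0.00915), and that of miR-129-3p in none (at least 0.249). Without one library, the log2 arm ratio difference was -0.39 to 0.89, the 5p share difference -3.96 to 9.26 points, and the 3p 5′ end difference -2.12 to -0.05 points. The latter was 0.82 points in the pooled lanes alone. The causes were not tested. FCx values rest on 153 to 241 counts of miR-129-3p per library and HP values on 790 to 1715.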

Other observations

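The remaining markers showed how other miRNAs spread over these libraries. The oligodendrocyte markers miR-219 and miR-338-3p together held 1597, 1017 and 529 CPM (FCx, indexes 3, 7 and 11) and 1875, 2307 and 406 CPM (HP). MiR-219 was highest with index 3 in both regions (1484 and 1754 CPM) and lowest with index 7 in FCx (340 CPM). MiR-338-3p was highest with index 7 in both regions (677 and 768.5 CPM). Muscle markers (miR-1, miR-133a and miR-206) held 1079 CPM (FCx) and 816 CPM (HP) with index 7, against 71.0 to 123 CPM in the other 4 libraries. The peak was that of miR-1 (1066 and 808 CPM). By CPM, miR-206 was highest with index 3 (7 counts in FCx and 31 in HP) and miR-133a with index 11 (7 and 8 counts). These orders rest on few counts. Blood markers (miR-451, miR-144 and miR-486) held 172 and 165.5 CPM with index 7 and 35.0 to 82.3 CPM in the other libraries. Here miR-451 carried the sum (140 and 143 CPM with index 7), and miR-486 was lowest with index 7 in FCx. The liver marker miR-122 reached 24.0 CPM (119 counts) in the HP index 7 library and 12.8 CPM (5 counts) in the FCx index 3 library. The summed vessel markers (miR-126-3p, miR-143 and miR-145) were lowest with index 7, at 210.0 CPM (FCx) and 196 CPM (HP), and highest with index 11, at 619 and 728 CPM. This order was that of miR-143, whereas miR-126-3p was lowest with index 3 in both regions (3 counts in FCx and 23 in HP).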
